A study of Mus musculus with 8 samples.

Results

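Slc7a9 and 9 other amino acid transporter genes of epithelia (Slc3a1, Slc3a2, Slc7a5, Slc7a7, Slc7a8, Slc6a14, Slc6a19, Slc1a5 and Slc1a1) were followed in the colon of bone marrow chimeras, 10 genes of the 26008 listed for each mouse. They were found by symbol, and all 10 passed the filter that 19127 genes passed (a mean of at least 10 normalized counts over the 8 mice). Slc7a9 heads the set because its level differed between the genotypes in these libraries, and its genotype difference is thus given as a description, without a test. The set was chosen by the Slc7a9 counts of these 8 mice, and the other 9 genes were added for their function as heavy chains, light chains or other carriers of amino acids.

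Gene expression was measured by RNA-seq in the colon of 8 chimeras, 4 with Penk-/- and 4 with Penk+/+ marrow, with 1 library per mouse. All recipients were lethally irradiated male wild-type C57BL/6JRj mice aged 7 weeks, which received marrow from male donors aged 9 to 11 weeks, either knockout for Penk (B6.129-Penk-rstm1Pig/J) or wild-type, and were examined 18 weeks after engraftment. Penk codes for proenkephalin, the precursor of the opioid enkephalins, and the study asked whether enkephalins of immune cells act on the colon. The deletion was thus carried by cells derived from the graft, whereas the epithelium, which expresses most of these transporters, was wild-type in both groups.

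Amino acids enter and leave epithelial cells through families of carriers. In the heteromeric ones, a light chain that does the transport is held at the membrane by a heavy chain through a disulfide bridge: Slc7a9 pairs with Slc3a1 (rBAT) at the apical side of kidney and small intestinal cells, where they take up cystine and basic amino acids, and loss of either causes cystinuria. Slc7a5, Slc7a7 and Slc7a8 pair with Slc3a2, the CD98 heavy chain. Slc6a14, Slc6a19, Slc1a5 and Slc1a1 are carriers driven by sodium that need no heavy chain of this kind. The colon absorbs far fewer amino acids from food than the small intestine.

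The values are normalized counts, in which the reads of a gene are scaled by the size factor of the library. Between 33.1 M and 50.7 M reads per library stood behind them. Penk itself had 528 ± 67.5 normalized counts in chimeras with Penk-/- marrow and 541 ± 73.2 in those with Penk+/+ marrow (SD, n = 4 each), so that the biopsies do not check the labels of the grafts. All 17 epithelial markers examined, Epcam and Cdh1 among them, were above 0 in every library, with summed levels of 712928 to 1000490 normalized counts in Penk-/- and 895232 to 1092780 in Penk+/+ chimeras. In contrast, 2 libraries stood apart by Pbsn, the gene of the prostate secretory protein probasin: replicate 3 of the Penk-/- chimeras had 105658 normalized counts and replicate 4 of the Penk+/+ chimeras 111024, against 0 to 13425 in the other 6. The 6 accessory gland markers together ranged from 11717 to 227592 in Penk-/- and from 10990 to 238453 in Penk+/+ chimeras, and 3 of them were at 0 in at least 1 library. Several results that rest on these 2 libraries are given with and without them.

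The upstream sequences of the light chain Slc7a9 and of its heavy chain Slc3a1 are shown because they are the pair that the set turns on. The search used the 250 bases before each transcription start of RefSeq (table of GRCm38.p6), which had 1 exact match each in GRCm39, whose coordinates are given. Of Slc7a9, only the 195 bases before the first exon base that GENCODE annotates in this window are printed. The RefSeq start lies 849 bases inside the gene as GENCODE annotates it, so that these 195 bases are intronic or upstream according to the transcript, whereas the window of Slc3a1 lies before its annotated start. Sequences are written 5′ to 3′ on the gene's strand, in lower case, and capitals mark the motifs found by a search of 6 motifs on both strands.
Slc7a9, chr7:35148267-35148461, plus strand: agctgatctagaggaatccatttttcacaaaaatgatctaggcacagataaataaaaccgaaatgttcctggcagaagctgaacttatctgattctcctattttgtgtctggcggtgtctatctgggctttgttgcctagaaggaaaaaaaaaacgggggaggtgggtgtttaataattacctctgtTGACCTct
Slc3a1, chr17:85335525-85335774, plus strand: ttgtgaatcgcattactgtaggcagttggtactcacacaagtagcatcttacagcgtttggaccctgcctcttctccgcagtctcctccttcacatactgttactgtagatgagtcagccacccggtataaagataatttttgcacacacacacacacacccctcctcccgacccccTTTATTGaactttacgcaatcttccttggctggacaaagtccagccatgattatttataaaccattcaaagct

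The motifs were the E-box CACGTG and the D-box TTANGTAA of clock factors, the half-site AGGTCA bound by ROR receptors, the half-site GTTAAT of HNF1, the amino acid response element TGATGNAA bound by ATF4, and TTTATNG bound by CDX factors. The Slc7a9 window held AGGTCA on the opposite strand, read as TGACCT, at bases 63 to 58 before the RefSeq start, and 14% of the 32536 windows of all genes held this half-site. The window of a second RefSeq start of Slc7a9 holds the same copy. The Slc3a1 window held TTTATTG at bases 73 to 67 before its start, a motif present in 9.74% of windows. Of the 10 transporters, 8 had windows in the table. Among them AGGTCA was present in 2 (Slc7a9 and Slc7a7), TTTATNG in 1 (Slc3a1), GTTAAT in 1 (Slc7a7, 6.47% of windows) and TGATGNAA in 1 (Slc7a7, 3.4% of windows), whereas CACGTG (6.04% of windows) and TTANGTAA (2.03% of windows) were present in none. A match of these letters is a description of the sequence and not a binding site.

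Slc7a9 (ENSMUSG00000030492, GRCm39 chromosome 7, 35147668 to 35165461, plus strand, with 12 exons in its longest transcript), the light chain for cystine and basic amino acids, had 210, 200, 188 and 147 normalized counts in the 4 Penk-/- chimeras and 350, 327, 397 and 479 in the 4 Penk+/+ chimeras. The groups did not overlap. Penk-/- chimeras averaged 186 ± 27.8 and Penk+/+ chimeras 388 ± 67.3 (SD, n = 4 each), so that the former had 48.0% of the latter's level. The log2 fold change was -1.05 (standard error 0.15), which placed Slc7a9 at rank 59 from the lowest of the 19127 genes. These numbers chose the gene. The values rested on 133 to 259 reads in Penk-/- and 281 to 559 in Penk+/+ chimeras, and the coefficient of variation between mice (14.9% and 17.3%) exceeded the one that counting alone gives (7.34% and 5.17%). In bulk tissue, fewer cells that express a gene and less RNA per cell cannot be told apart.

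**Figure D1:**
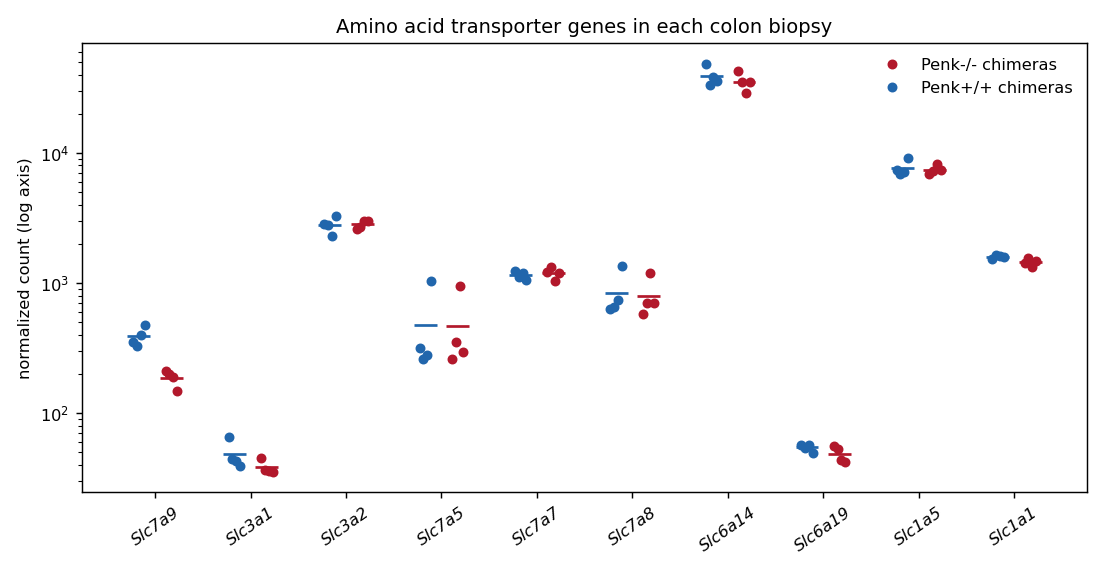
Normalized counts (log axis) of the 10 transporter genes in each colon biopsy, with 1 point per mouse and a bar at the mean of each genotype. Slc7a9 is the gene whose groups do not overlap, with 147 to 210 in Penk-/- and 327 to 479 in Penk+/+ chimeras, whereas Slc7a5 and Slc7a8 each have 1 high mouse in either genotype.

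The heavy chain of Slc7a9 was far less abundant and did not separate the genotypes. Slc3a1 (ENSMUSG00000024131, chromosome 17, 85335804 to 85374794) had 45.4, 36.6, 35.6 and 35.4 normalized counts in Penk-/- and 66.0, 44.7, 42.9 and 39.4 in Penk+/+ chimeras, from 32 to 53 reads per library. The highest value in each genotype was that of replicate 1, and the groups overlapped. The log2 fold change was -0.31 (standard error 0.21, 95% interval -0.77 to 0.16, adjusted p = 0.673 with limma). It was -0.15 without Penk+/+ replicate 1 and -0.18 with the epithelial level of each mouse (described with the markers) as a covariate. Counting alone gives a coefficient of variation of 16.1% in Penk-/- and 14.6% in Penk+/+ chimeras here, beside 12.6% and 24.9% observed between mice. Slc3a1 lies across Prepl on the opposite strand (2063 normalized counts, log2 fold change 0.02), and the strand setting used for counting is not given in the sources used here.

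The ratio of Slc7a9 to Slc3a1 within a library does not depend on the size factor. On the log2 scale it was 2.18, 2.42, 2.37 and 2.02 in Penk-/- and 2.39, 2.84, 3.18 and 3.57 in Penk+/+ chimeras. The groups overlapped in 1 mouse of each side, Penk+/+ replicate 1 lying below Penk-/- replicate 2. The ratio averaged 2.25 ± 0.18 in the Penk-/- group and 3.0 ± 0.50 in the Penk+/+ group (SD, n = 4 each), a difference of -0.75, given without a test since it contains the difference that chose Slc7a9. Per kilobase of exons, the light chain exceeded the heavy chain 8.94 ± 1.11 times in Penk-/- and 15.6 ± 5.34 times in Penk+/+ chimeras.

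The heavy chain Slc3a2 (ENSMUSG00000010095, chromosome 19, 8684245 to 8701108), which also serves integrin signalling and is found in nearly all cells, had 2578, 2697, 3007 and 2990 normalized counts in Penk-/- and 2830, 2805, 2312 and 3244 in Penk+/+ chimeras. The lowest and the highest mouse both belonged to the Penk+/+ group, and the log2 fold change was 0.02 (standard error 0.10, 95% interval -0.21 to 0.25, adjusted p = 0.975 with limma).

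Its light chain Slc7a5 (ENSMUSG00000040010, chromosome 8, 122607884 to 122634433), the LAT1 exchanger of large neutral amino acids found in growing cells and activated lymphocytes, had 263, 353, 956 and 297 normalized counts in Penk-/- and 316, 262, 280 and 1031 in Penk+/+ chimeras. A single mouse of each genotype was high, and the other 6 lay between 262 and 353. Slc7a8 (ENSMUSG00000022180, chromosome 14, 54959630 to 55019649), the LAT2 exchanger, placed basolaterally in epithelia, had 576, 706, 1199 and 706 in Penk-/- and 629, 657, 744 and 1344 in Penk+/+ chimeras. The same 2 mice were high, and they are the 2 with the most Pbsn. The log2 fold change was 0.03 for Slc7a5 (95% interval -1.10 to 1.17, adjusted p = 0.992 with limma) and -0.07 for Slc7a8 (95% interval -0.69 to 0.56, adjusted p = 0.964 with limma), intervals so wide that a doubling of Slc7a5 would not be detectable. Without the 2 libraries, the log2 fold change was 0.08 (standard error 0.14) for Slc7a5 and -0.03 (standard error 0.11) for Slc7a8.

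Slc7a7 (ENSMUSG00000000958, chromosome 14, 54606895 to 54655603), the exchanger that releases basic amino acids at the basolateral side and whose loss causes lysinuric protein intolerance, had 1220, 1329, 1042 and 1190 normalized counts in Penk-/- and 1230, 1114, 1196 and 1057 in Penk+/+ chimeras. The ranges covered each other, and the 2 high mice of Slc7a5 had the lowest value of their genotype. Its log2 fold change, 0.05, was small against its spread (standard error 0.09, 95% interval -0.14 to 0.25, adjusted p = 0.885 with limma). Slc7a7 overlaps Oxa1l on the opposite strand (2064 normalized counts, log2 fold change 0.04).

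Relative to Slc3a2, none of the 3 light chains differed between the genotypes beyond the spread between mice. The mean log2 ratio of Slc7a5 to Slc3a2 was -2.80 ± 0.79 and -2.82 ± 0.79 in the Penk-/- and the Penk+/+ group (SD, n = 4 each; exact permutation test, two-sided, p = 0.971). That of Slc7a7 was -1.24 ± 0.23 and -1.27 ± 0.28 (exact permutation test, two-sided, p = 0.857), and that of Slc7a8 was -1.87 ± 0.38 and -1.79 ± 0.42 (exact permutation test, two-sided, p = 0.83), with an adjusted p of 0.971 for each of the 3. The differences were 0.02, 0.04 and -0.08 on the log2 scale, and a spread of 0.79 between mice leaves larger differences of the Slc7a5 ratio undetectable. With 4 mice against 4 the smallest p of this exact test is 0.0286. Per kilobase of exons, the sum of the 3 light chains was 0.537 to 0.854 times the level of Slc3a2 (median 0.635). Slc7a6, another light chain of Slc3a2, was not in this sum. In the Slc7a9 pair, by contrast, the light chain was the more abundant in every mouse.

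**Figure D2:**
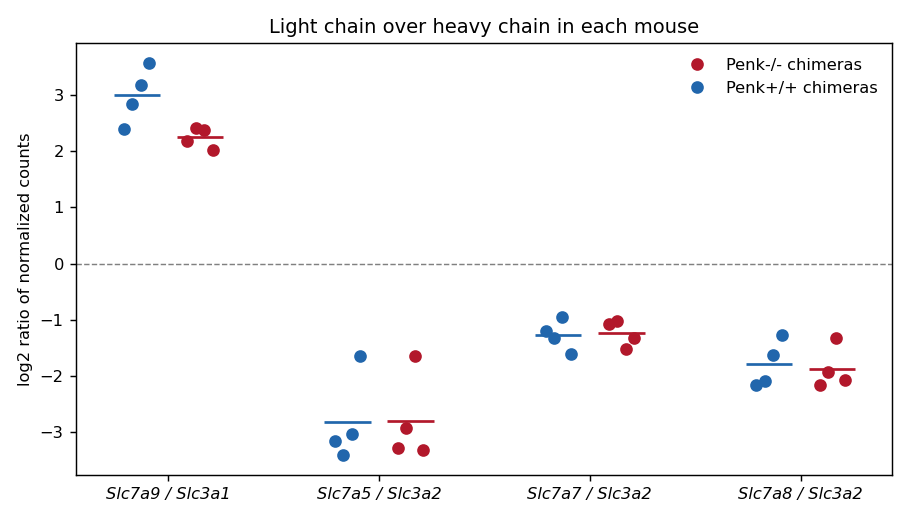
Log2 ratio of the normalized counts of each light chain to its heavy chain, with 1 point per mouse and a bar at the mean of each genotype (dashed line, equal counts). Slc7a9 over Slc3a1 lies at 2.02 to 2.42 in Penk-/- and 2.39 to 3.57 in Penk+/+ chimeras, whereas the 3 ratios to Slc3a2 are below 0 and have closely placed means.

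Among the sodium-driven carriers of the apical side, Slc6a14 (ENSMUSG00000031089, chromosome X, 21581135 to 21608594), which takes up neutral and basic amino acids, was the most abundant gene of the set. It had 42549, 34765, 28745 and 35096 normalized counts in Penk-/- and 48360, 33259, 38340 and 35723 in Penk+/+ chimeras. Replicate 1 was the highest mouse of both genotypes, and the groups overlapped (log2 fold change -0.14, standard error 0.14, 95% interval -0.46 to 0.18, adjusted p = 0.799 with limma). Slc6a19 (ENSMUSG00000021565, chromosome 13, 73827860 to 73852984), the main neutral amino acid carrier of the small intestine and kidney, had only 55.5, 52.7, 43.6 and 42.0 in Penk-/- and 57.2, 54.2, 57.2 and 49.7 in Penk+/+ chimeras, from 38 to 60 reads. The groups overlapped (log2 fold change -0.18, standard error 0.16, 95% interval -0.54 to 0.19, adjusted p = 0.775 with limma).

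Slc1a5 (ENSMUSG00000001918, chromosome 7, 16515265 to 16532731), the ASCT2 exchanger through which proliferating cells obtain glutamine, had 6855, 7289, 8187 and 7428 normalized counts in Penk-/- and 7428, 6936, 7172 and 9137 in Penk+/+ chimeras. The 2 mice with the most Pbsn were again the highest of their genotype, although by far less than in Slc7a5. The log2 fold change was -0.04 (standard error 0.09, 95% interval -0.25 to 0.17, adjusted p = 0.932 with limma). Without these 2 mice, that of Slc1a5 was 0.002 (standard error 0.06). Slc1a1 (ENSMUSG00000024935, chromosome 19, 28812449 to 28891360), the EAAT3 carrier of glutamate, aspartate and cysteine, had 1434, 1555, 1338 and 1478 in Penk-/- and 1516, 1640, 1600 and 1580 in Penk+/+ chimeras. A single Penk-/- mouse lay above the lowest Penk+/+ mouse. The means were 1451 ± 90.4 and 1584 ± 51.8 (SD, n = 4 each) and the log2 fold change was -0.13 (standard error 0.06, 95% interval -0.27 to 0.01, adjusted p = 0.561 with limma), the narrowest interval of the set.

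Of all 19127 genes tested, 9347 had a log2 fold change below 0 and 9780 above, with a median of 0.01. Of the 9 transporters other than Slc7a9, 6 were below 0 and 3 above, with a median of -0.07. None had an adjusted p below 0.05 with limma (0.561 to 0.992), as for all genes tested (0% called). None had an unadjusted p below 0.05, where 9.63% of all genes did. In none did the groups stay apart, where they did in 5.63% of all genes (2.89% with Penk-/- above and 2.74% with Penk-/- below). The 95% intervals reached from 0.142 (Slc1a1) to 1.14 (Slc7a5) on either side of the estimate on the log2 scale.

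**Figure D3:**
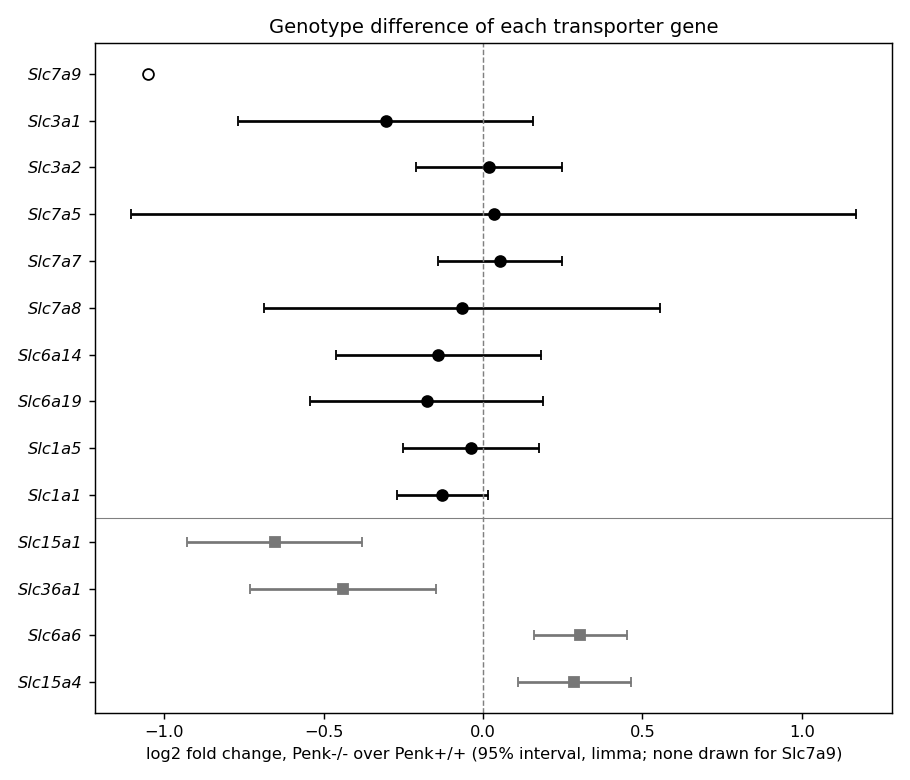
Log2 fold change (Penk-/- over Penk+/+) of the 10 transporters (circles) and of 4 transporters of the wider list (squares), with 95% intervals from limma over 4 mice per genotype. The 4 were picked by their values among the 39 tested, and none had an adjusted p below 0.05 with limma. Slc7a9 (open circle) lies at -1.05 and is drawn without an interval since its difference chose the set, the intervals of the other 9 circles include 0, Slc15a1 and Slc36a1 lie below 0, and Slc6a6 and Slc15a4 above.

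Levels of different genes were compared per kilobase of exons (union of all annotated exons). Slc6a14 was first with 10805 ± 1754 normalized counts per kilobase (SD over the 8 mice), above 99.5% of the genes tested, and made up 74% to 84.2% of the summed level of the 10 genes. It was followed by Slc1a5 (1394 ± 140) and Slc3a2 (602 ± 61.4), and none of these 3 overlapped the next. Slc7a7 (193 ± 15.8) and Slc1a1 (177 ± 11.5) overlapped, the first being above the second in 6 of 8 mice. Slc7a5 (122 ± 84.6), Slc7a9 (97.4 ± 40.0) and Slc7a8 (88.8 ± 31.0) covered each other over the 8 mice, and the place of Slc7a9 among them went with the genotype difference that chose it. In Penk-/- chimeras, Slc7a9 was at 63.2 ± 9.41 and above Slc7a8 in 1 of 4 mice and above Slc7a5 in 1 of 4. In Penk+/+ chimeras, it was at 131.5 ± 22.8 and above Slc7a8 in 4 of 4 and above Slc7a5 in 3 of 4. The last were Slc6a19 (10.3 ± 1.19) and Slc3a1 (8.01 ± 1.85), which overlapped each other and lay below all others in every mouse. The small intestinal carriers Slc6a19 and Slc3a1 thus ranked above only 13.9% and 10.9% of the genes tested, whereas Slc7a9 stood near the middle (50.9%). With the length of the longest transcript in place of the union, Slc1a1 (374) came above Slc7a7 (330.1), and Slc7a8 (164) above Slc7a9 (138).

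**Figure D4:**
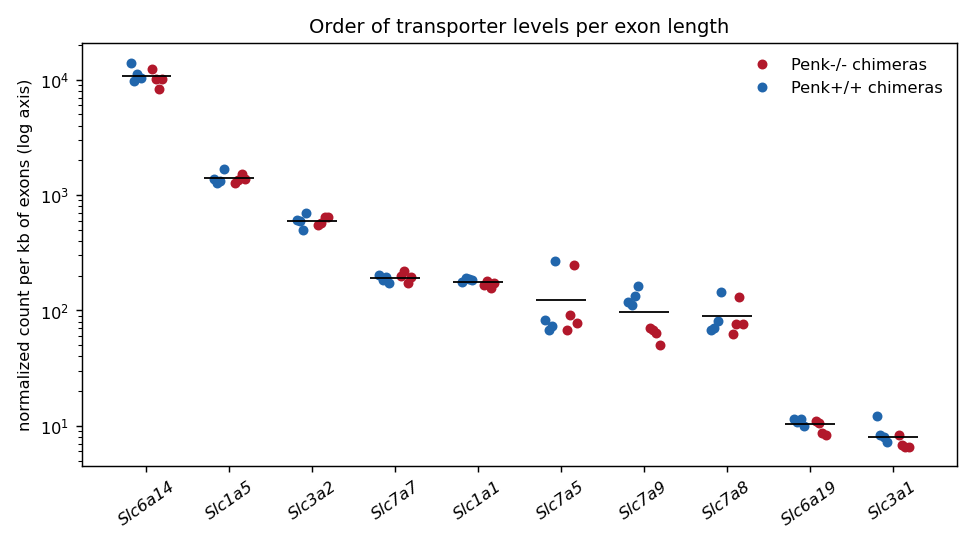
Normalized count per kilobase of exons (log axis) of the 10 transporters in decreasing order of the mean, with 1 point per mouse and a bar at the mean of 8 mice. Slc6a14 (8371 to 14083) is above all others, Slc6a19 and Slc3a1 are below all others, and Slc7a5, Slc7a9 and Slc7a8 cover each other.

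Among 48 other amino acid and peptide transporters, 44 were in the table and 39 passed the filter. None had an adjusted p below 0.05 with limma. At an unadjusted p below 0.05, 4 were higher in Penk-/- chimeras (10.3% of 39, beside 4.3% of all genes) and 2 lower (5.13%, beside 5.33% of all genes), and the median log2 fold change was 0.06. In 3 of the 39 (7.69%, beside 5.63% of all genes), the groups did not overlap: Slc15a1, Slc6a6 and Slc15a4.

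Slc15a1 (chromosome 14, 121697033 to 121742845), the PEPT1 carrier that takes up small peptides at the apical side, had 10230, 9094, 7136 and 10617 normalized counts in Penk-/- and 16218, 13951, 14223 and 13428 in Penk+/+ chimeras. All Penk-/- mice lay below all Penk+/+ mice, as for Slc7a9. The mean of 9269 ± 1562 was 64.1% of that in Penk+/+ chimeras, 14455 ± 1221 (SD, n = 4 each), which gives a log2 fold change of -0.65 (standard error 0.12, 95% interval -0.93 to -0.38, adjusted p = 0.323 with limma). With DESeq2 on the recovered reads of 7 libraries (without Penk-/- replicate 1), where 2.51% of genes were called, its adjusted p was 0.000217, but with edgeR on the same 7, where 0.0261% were called, it was 0.208, and over all settings tried it ranged from 0.000217 to 0.628. Slc36a1 (chromosome 11, 55095146 to 55127156), a carrier of small amino acids driven by protons and named here after its values were seen, had 9717, 7422, 6448 and 8302 in Penk-/- and 11073, 8931, 11252 and 11732 in Penk+/+ chimeras. The groups overlapped (log2 fold change -0.44, standard error 0.13, adjusted p = 0.385 with limma).

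In the other direction, the taurine carrier Slc6a6 had 6401, 6405, 5925 and 6733 normalized counts in Penk-/- and 5352, 4954, 5492 and 4819 in Penk+/+ chimeras. No mouse of either genotype lay within the range of the other group, and the log2 difference amounted to 0.31 (SE 0.06, adjusted p = 0.325 with limma and 0.0193 with DESeq2 on 7 libraries, 0.0193 to 0.628 over all settings). Slc15a4, a carrier of histidine and small peptides on lysosomes of immune cells, had 685 ± 58.3 and 560 ± 18.5 (SD, n = 4 each; log2 fold change 0.29, standard error 0.08, adjusted p = 0.351 with limma). The other 2 genes higher at an unadjusted p below 0.05, named after their values were seen, were Slc7a6 (log2 fold change 0.31), a light chain of Slc3a2 for basic amino acids, and Slc6a9 (0.27), a glycine carrier, and their groups overlapped.

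Of 13 partners and peptidases of the brush border, 12 passed the filter. Among them, 10 had a log2 fold change below 0 (median -0.07), beside 9347 of the 19127 genes tested. Of the 12, 1 was lower at an unadjusted p below 0.05 (beside 5.33% of all genes), Mep1b, a subunit of the metalloprotease meprin, with 4387 ± 901 and 6235 ± 1218 normalized counts in the Penk-/- and the Penk+/+ group (SD, n = 4 each; log2 fold change -0.51, standard error 0.17, adjusted p = 0.425 with limma and 0.00743 with DESeq2 on 7 libraries, 0.00743 to 0.677 over all settings). Without the 2 libraries rich in Pbsn the log2 fold change of Mep1b was -0.30. Naaladl1, a peptidase, had a log2 fold change of -0.25 (adjusted p = 0.613 with limma), and of -0.11 without these 2 libraries. Mme (neprilysin, which also cleaves enkephalins) had 111, 348, 2909 and 312 in Penk-/- and 505, 265, 175 and 3201 in Penk+/+ chimeras, the high values being those of the 2 mice with the most Pbsn. Its log2 fold change was -0.27 (standard error 1.08) with them and -0.32 (standard error 0.50) without.

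Cells short of amino acids induce genes through the transcription factor ATF4, Slc7a5 among them. All 18 amino acid response genes examined passed the filter, and 15 had a log2 fold change above 0, beside 9780 of the 19127 genes tested. The median of the 18 was 0.09, beside 0.01 for all genes. None of the 18 had an adjusted p below 0.05 with limma. At an unadjusted p below 0.05, 1 of 18 was higher (beside 4.3% of all genes), and in none did the groups not overlap. The one gene was Atf4 (log2 fold change 0.24, SE 0.10, adjusted p = 0.506 with limma). Atf3, a stress-induced factor, was at a log2 fold change of 0.60 (SE 0.29, adjusted p = 0.555 with limma and 0.0454 with DESeq2 on 7 libraries, 0.0454 to 0.793 over all settings). It was 0.37 with the epithelial level as a covariate and 0.44 to 0.85 when a mouse was left out. Vldlr, the very low density lipoprotein receptor, was at 0.19 (adjusted p = 0.597 with limma).

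Epithelial markers were compared because a biopsy can hold more or less epithelium. Of the 17 epithelial markers, 14 had a log2 fold change below 0 (median -0.16), beside 9347 of the 19127 genes tested. Only 1, the tight junction gene Cldn3 (named after its value was seen), was lower at an unadjusted p below 0.05 (beside 5.33% of all genes). The mean centred log2 level of the 17 markers ranged from -0.347 to 0.145 in Penk-/- and from -0.0932 to 0.254 in Penk+/+ chimeras, with a difference of -0.146 between the means. When this level was subtracted in each mouse, Slc7a9 was at 7.19 to 7.91 in Penk-/- and 8.20 to 8.79 in Penk+/+ chimeras on the log2 scale, a difference of -0.91 without overlap. The Slc7a9 counts of these mice chose the gene and did not overlap before the subtraction either. Its lack of overlap here is thus a description and no test. On the same scale, Slc15a1 was without overlap (difference -0.51), and so was Slc36a1, at 12.97 to 13.10 and 13.11 to 13.55 (difference -0.29), whereas Slc6a14 differed by 0.01 and overlapped. The groups of Slc36a1 overlapped before the subtraction and were barely apart after it. The share of all genes without overlap on this scale was not computed, so it is not known whether these separations are unusual. Small intestinal enterocyte markers (7 of 9 in the table) had summed levels of 6323 to 11736 in Penk-/- and 9289 to 12296 in Penk+/+ chimeras, and a median log2 fold change of -0.24. Of these 7, 6 were below 0 and 1, Fabp2, above (0.14). The sums were mostly Apob, at 4727 to 9780 over the 8 mice, whereas Lct and Sis averaged only 25.9 and 28.5. Markers of the kidney proximal tubule, where Slc7a9 and Slc3a1 act, summed to 67.4 to 87.9 and 80.7 to 93.3 only (3 of 5 in the table, of which 1 was at 0 in at least 1 library). The median log2 fold change was 0.09 for smooth muscle, 0.16 for stroma, 0.15 for endothelium, 0.14 for immune cells, -0.05 for neurons and glia and -0.04 for accessory gland. With the epithelial level as a covariate in limma, the log2 fold change was -0.31 for Slc36a1, -0.30 for Mep1b and -0.52 for Slc15a1 (adjusted p = 0.316, 0.340 and 0.217), beside -0.44, -0.51 and -0.65 without it.

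The covariation of the transporters within genotypes was then described. The Pearson correlation coefficient between deviations from the genotype means over the 8 mice was -0.02 for Slc7a9 with the epithelial level, against 0.82 for Slc6a14, 0.84 for Slc15a1, 0.74 for Slc36a1 and 0.62 for Slc3a1. The coefficient with the epithelial level was negative for Slc7a8 (-0.51), Slc7a5 (-0.39) and Slc1a5 (-0.21). With Pbsn, it was -0.11 for Slc7a9, 0.88 for Slc3a2, 0.68 for Slc1a5, 0.65 for Slc7a5 and 0.59 for Slc7a8. In the other direction, it was -0.65 for Slc6a19, -0.44 for Slc6a14, -0.415 for Slc7a7, -0.20 for Slc3a1 and -0.19 for Slc1a1. Slc7a9 and its partner Slc3a1 had a coefficient of -0.17, and the highest coefficient of Slc7a9 with a member of the set was 0.51, with Slc7a5. These coefficients describe 8 libraries that share their depth and tissue content.

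**Figure D5:**
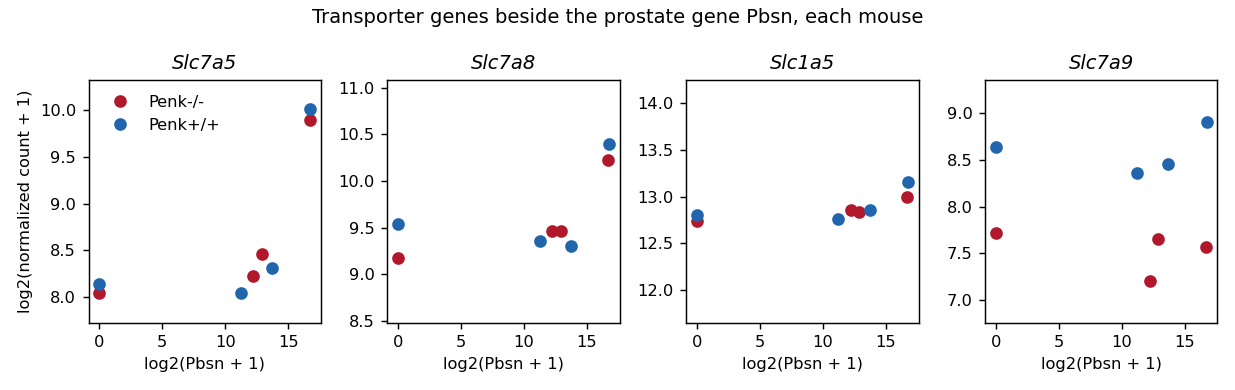
Log2(normalized count + 1) of Slc7a5, Slc7a8, Slc1a5 and Slc7a9 against that of Pbsn, with 1 point per mouse. The 2 mice with 105658 and 111024 normalized counts of Pbsn are the highest for Slc7a5, Slc7a8 and Slc1a5 in either genotype. For Slc7a9 the genotypes do not overlap, which is the difference that chose the gene. Of the 2 mice, Penk+/+ replicate 4 has the highest Slc7a9 value of all (479 normalized counts), and Penk-/- replicate 3 (188) lies within the range of its group.

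Of 14863 genes with a mean of at least 50, 13 had a coefficient above 0.9 with Slc7a9 over the deviations of the 8 mice. With 8 mice and so many genes, coefficients this high also arise by chance. The number to be met by chance was not computed, so the genes are listed as a description only. The first 5 were 4930431P19Rik (0.96), Neu3 (0.95), a sialidase of the plasma membrane, Gm15163 (0.94), Gm10509 (0.94) and 2700054A10Rik (0.93). Of these, 2700054A10Rik also had groups without overlap (126 to 153 in Penk-/- and 184 to 236 in Penk+/+ chimeras, log2 fold change -0.54), whereas Neu3 had a log2 fold change of -0.20 and 4930431P19Rik 0.02. When the 2 libraries rich in Pbsn were left out, 0 of these 5 were still among the first 5.

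The genes around Slc7a9, named after their values were seen, lay closer to 0. Within 150 kb, 9 of them were tested, with log2 fold changes from -0.46 for B230322F03Rik, which had a mean of 10.7 normalized counts only, to 0.31 for Faap24, the one neighbour with groups that did not overlap, and which was higher in Penk-/- chimeras. The nearest upstream gene Cep89 had a log2 fold change of -0.06 and the nearest downstream gene Tdrd12 -0.20. Slc7a9 overlaps a long non-coding RNA on the opposite strand, Gm42378, whose level is not analysed here.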

How the data were processed

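Colonic RNA of 4 Penk-/- and 4 Penk+/+ chimeras was sequenced. The authors made paired-end libraries of poly-A RNA with a stranded kit, aligned and quantified the reads with STAR 2.7.8a on GRCm39 and compared the genotypes with DESeq2 1.30.0 (per the labels and the methods of the study). The deposited signal is a normalized count per gene and mouse, made by the authors as reads divided by a size factor. Reads were recovered, as 100% of a library's values came out as whole multiples of its step (tolerance 0.001 reads), and amounted to 33.1 M to 50.7 M per library. Intervals from reads cover counting error only. Of 26008 Ensembl identifiers, 25776 matched GENCODE M39. All libraries differed from each other by more than sampling noise (smallest chi-square per degree of freedom 11.2).

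Genotypes were compared with limma 3.58.1 (trend) in R 4.3.3 on log2(value + 1) over 19127 genes with a mean of at least 10, two-sided, without covariates, with Benjamini-Hochberg adjustment over all of them. Fold changes are on this scale. Each library is 1 mouse. Ratios were compared by exact permutation tests over 70 assignments. edgeR 4.0.16 and DESeq2 1.42.0 were run on 7 libraries. Penk-/- replicate 1 was left out because its step is close to 1 (1.01), although 100% of its values were whole multiples of that step. With voom, added after the data were seen, all 8 were used. Of these tests, limma and edgeR were run on simulated counts with known changes, whereas DESeq2, voom and the permutation test were not. Alternatives were pseudocounts of 0.1 and 8, a filter at a mean of 50 or none, quantile normalization, a block for the replicate number, the epithelial level as a covariate, and libraries left out.

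The members and lists were chosen with earlier results of these data known. In each list, genes without overlap between groups were named, and up to 3 genes by size of the log2 fold change where these were fewer, with the 5 genes most like Slc7a9 and with Penk and Pbsn. One further gene is not reported here. Promoters are RefSeq windows (GRCm38.p6) cut to 250 bases and matched exactly to GRCm39.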

Additional observations from a re-analysis of the deposited data

Results flagged for a closer look

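Within a group of 4 mice, a value was singled out when its gap to the nearest mouse, divided by the range of the group, exceeded Dixon's 95% critical value. Of 50 groups examined, 7 met this, where 2.5 would by chance. Slc7a5 did in both genotypes, with a gap of 0.870 of the range above the others for Penk-/- replicate 3 and 0.930 for Penk+/+ replicate 4, and so did Mme, with 0.915 and 0.891 in the same 2 mice. Slc7a8 did in Penk+/+ replicate 4 (0.839). Vldlr was lowest in Penk-/- replicate 3 (0.904). These 2 mice had 105658 and 111024 normalized counts of Pbsn, and what share of these values comes from accessory gland tissue was not tested. Slc3a1 was highest in Penk-/- replicate 1 (0.873), from 32 to 49 reads per mouse of that group.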

How the results depend on the processing

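The log2 fold change of Slc7a9 was between -1.13 and -0.94 under all 20 settings, -0.95 without the 2 libraries rich in Pbsn. No called value reversed. The estimates of Slc3a2, Slc7a5 (-0.38 to 0.50 when a mouse was left out), Slc7a8, Slc1a5 and Slc6a14 took both signs over the settings, and none of the 9 other members was called in any (Slc3a1 and Slc6a19 had no adjusted p with DESeq2, and Slc3a1 is below a mean of 50). The number of genes at an adjusted p below 0.05 was 0 with limma (1842 at an unadjusted p), 0 with voom, 1 after quantile normalization, 1 with the replicate number as a block, 1 with the epithelial level as a covariate, 5 with edgeR and 367 with DESeq2, both on 7 libraries, and 0 to 6 when a mouse was left out, the 6 without Penk-/- replicate 1. At an unadjusted p below 0.05 it was 2938 with the block and 1383 to 2222 when a mouse was left out. The cause was not tested. Of the named genes, Slc15a1, Slc6a6, Mep1b and Atf3 passed with DESeq2 and under no other setting, and Slc36a1 also passed with DESeq2 (adjusted p = 0.00279). The replicate numbers do not pair the mice (correlation of deviations 0.15, -0.04, -0.32 and -0.16 for numbers 1 to 4, and 0 of 4 mice closest to their own number), and the block called no named gene. Other transporters higher at an unadjusted p below 0.05, 4 in all mice, were 7 without the 2 libraries rich in Pbsn and 2 to 6 when a mouse was left out, the 2 without Penk-/- replicate 2. The 5 genes most like Slc7a9 were replaced without the 2 libraries (0 shared). With the longest transcript as length, the levels per kilobase were 138 for Slc7a9, 907 for Slc3a2, 330.1 for Slc7a7, 164 for Slc7a8, 2136 for Slc1a5, 12.3 for Slc6a19 and 374 for Slc1a1. Depth limits Slc3a1 and Slc6a19, read from 32 to 60 reads.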
